A study of Mus musculus with 6 samples.

Results

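The 10 genes described here are used as markers of macrophages that live in a tissue or carry the receptors CD206 or CD163: Cd163, Mrc1, Lyve1, Folr2, F13a1, Cbr2, Mgl2, Clec10a, Maf and Timd4. They were taken by symbol, and all 10 are listed among the 14015 genes named in the table. Injured quadriceps muscle was sequenced 7 days after volumetric muscle loss, a surgical removal of part of the muscle, with no implant in any mouse. In the study's methods such control injuries were made in both legs and filled with sterile saline. There were 3 WT mice and 3 mice with the genotype GATA-1 mutant, which are the eosinophil-deficient ΔdblGATA mice and carry their mutation in every cell. The study's methods describe adult female C57BL/6 mice as WT, and the age and sex of the mutant mice are not given in the sources used here. Poly(A) RNA of whole muscle was measured, so that fewer cells of a type and less RNA per cell cannot be told apart. Each value below is the authors' mean log2 CPM of a gene, where CPM is its read count scaled to the size of the library, 1 number for all 6 mice. It does not separate the genotypes or the mice, so no error, no test and no difference between WT and mutant mice is given, and the depth of each library is unknown.

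Resident macrophages settle in muscle connective tissue and around vessels, where they clear dead cells and debris and take up iron-bearing haemoglobin. Many of them display endocytic receptors, among them the mannose receptor CD206, the haemoglobin scavenger receptor CD163, the hyaluronan receptor LYVE-1 and folate receptor beta. After an injury monocytes enter from blood and become macrophages too, and in a type 2 response IL-4 raises CD206 and the lectins CD301a and CD301b on them. Several of these genes are also used by other cells: Lyve1 and Mrc1 by lymphatic endothelium, F13a1 by platelets and megakaryocytes, Mgl2 and Clec10a by dendritic cells, and Maf by T cells and non-immune cells.

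Sequence that a gene shares with other genes decides how well its reads can be assigned, and 2 of the members are close copies of each other. Mgl2 (CD301b) and Clec10a (CD301a) encode galactose-type lectins and lie on the same strand of chromosome 11, with 18646 bases between them. The coding parts of their longest transcripts have 8 exact runs of 31 bases or more in common. The longest run, of 183 bases, lies in exons 7 to 9 of Mgl2 (GRCm38, chr11:70136337-70136699, plus strand) and in exons 6 to 8 of Clec10a (chr11:70169822-70170189, plus strand), introns included in both intervals. It is printed below from GENCODE M21 transcripts, with the identical bases in capitals and 15 bases on either side in lower case, because a read that lies wholly inside the capitals matches both genes equally.
Mgl2: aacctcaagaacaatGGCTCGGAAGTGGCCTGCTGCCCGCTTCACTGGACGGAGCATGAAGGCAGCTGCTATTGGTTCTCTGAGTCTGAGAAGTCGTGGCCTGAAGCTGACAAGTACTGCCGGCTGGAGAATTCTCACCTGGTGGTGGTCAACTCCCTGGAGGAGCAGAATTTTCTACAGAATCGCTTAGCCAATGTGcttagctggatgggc
Clec10a: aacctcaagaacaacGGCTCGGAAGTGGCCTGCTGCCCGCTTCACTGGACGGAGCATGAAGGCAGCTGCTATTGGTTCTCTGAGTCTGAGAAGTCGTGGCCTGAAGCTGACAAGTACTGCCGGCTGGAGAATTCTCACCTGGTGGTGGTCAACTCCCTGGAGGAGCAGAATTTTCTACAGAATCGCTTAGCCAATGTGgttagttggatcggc
The next run, of 106 bases, lies in exons 5 and 6 of Mgl2 (chr11:70135777-70135961) and in exons 4 and 5 of Clec10a (chr11:70169315-70169499).
Mgl2: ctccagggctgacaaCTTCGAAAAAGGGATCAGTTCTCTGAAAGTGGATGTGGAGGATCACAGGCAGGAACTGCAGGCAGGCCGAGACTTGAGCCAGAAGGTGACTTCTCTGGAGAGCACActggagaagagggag
Clec10a: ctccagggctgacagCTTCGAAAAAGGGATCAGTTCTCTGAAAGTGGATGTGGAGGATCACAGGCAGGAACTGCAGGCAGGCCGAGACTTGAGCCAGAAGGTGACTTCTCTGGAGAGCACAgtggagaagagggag
Cbr2 (carbonyl reductase 2, chromosome 11) has a copy of another kind, the unprocessed pseudogene Gm11771 (chr11:120765310-120767365, plus strand). Their longest common run, of 170 bases, lies in exons 6 to 8 of Cbr2 (chr11:120729812-120730294, minus strand).
Cbr2: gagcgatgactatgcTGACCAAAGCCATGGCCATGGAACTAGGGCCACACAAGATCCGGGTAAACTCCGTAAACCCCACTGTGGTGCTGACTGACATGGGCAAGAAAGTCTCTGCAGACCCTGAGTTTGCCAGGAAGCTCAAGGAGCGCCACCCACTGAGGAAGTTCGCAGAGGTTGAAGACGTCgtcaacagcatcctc
Gm11771: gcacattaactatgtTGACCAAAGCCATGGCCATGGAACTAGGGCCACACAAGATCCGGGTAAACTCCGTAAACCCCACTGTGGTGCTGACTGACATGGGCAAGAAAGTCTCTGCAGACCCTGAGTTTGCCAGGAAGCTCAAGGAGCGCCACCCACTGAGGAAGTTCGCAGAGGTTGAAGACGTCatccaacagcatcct

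Over the longest coding transcript, Mgl2 shared 27.2% of its 31-base words with other genes, read on both strands, and 22.6% with Clec10a alone. The other way round, 15.7% of the words of Clec10a occurred in other genes, all of them in Mgl2. Cbr2 shared 18.3%, all with Gm11771, which is not among the genes listed. Folr2 shared the largest part of the 10 members, 60.6%, through Gm10602, an antisense gene that runs across the end of Folr2 on the opposite strand. Gm10602 is not among the genes listed. Whether the authors' counting used strand is not given in the sources used here, and without strand reads from the shared stretch cannot be told apart between Folr2 and Gm10602, while reads from the rest of Folr2 can. Maf shared 7.88%, of which 6.10% lay in its antisense neighbour Gm15655, which is not listed either, and Cd163 shared 0.725%. Mrc1, Lyve1, F13a1 and Timd4 had 0 shared words of this length. The values of Mgl2, Clec10a, Cbr2 and Folr2 are therefore less certain than those of the other 6, by an amount that was not measured.

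**Figure D1:**
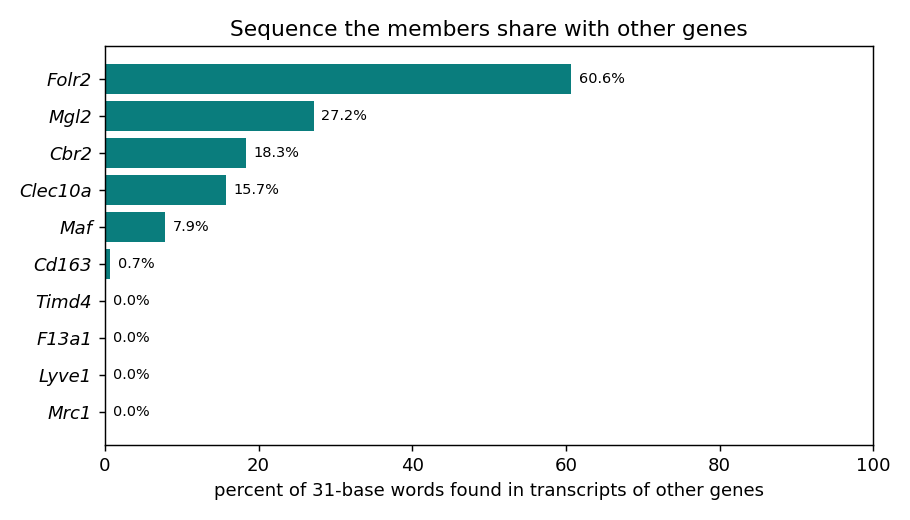
Percent of the 31-base words in the longest coding transcript of each of the 10 members (rows) that other genes also hold, on one or the other strand (bars, axis from 0 to 100). Folr2 stands at 60.6%, Mgl2, Cbr2 and Clec10a between 15.7% and 27.2%, and Mrc1, Lyve1, F13a1 and Timd4 at 0.

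The endocytic receptors differed widely in level. Mrc1, which encodes CD206 (chr2:14229392-14332057, plus strand, 30 exons), had a mean of 5.73 log2 CPM, a geometric mean of 52.9 CPM, and 80.7% of all genes were at or below it. A microRNA gene, Mir511, lies inside Mrc1 on the same strand. Cd163, a scavenger receptor for complexes of haemoglobin and haptoglobin (chr6:124304656-124330527, plus strand, 17 exons), had a mean of 3.54 log2 CPM, or 11.6 CPM. Lyve1 (chr7:110850607-110863239, minus strand, 6 exons) was at 3.50 log2 CPM, or 11.3 CPM. Folr2, folate receptor beta (chr7:101839988-101857194, minus strand, 6 exons), was at 4.22 log2 CPM, or 18.7 CPM. Mrc1 was thus the highest of these receptors, and Cd163 and Lyve1 lay side by side, below the median of 4.03 log2 CPM over all genes.
A long transcript collects more reads than a short one at the same number of molecules, so levels of different genes are compared after dividing by the length of the longest coding transcript in kilobases. The transcript of Mrc1 has 5374 nt and that of Cd163 4443 nt, while that of Folr2 has 1204 nt. Per length Folr2, at 3.95 log2 CPM per kb, came above Mrc1 at 3.30, Lyve1 at 1.96 and Cd163 at 1.38. Mrc1 was 3.77 times and Folr2 5.94 times as high as Cd163 on this scale. Cd163 was the second lowest of all 10 members per length, with 35.3% of genes at or below it.

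The lectins Mgl2 (chr11:70130329-70137550, 9 exons) and Clec10a (chr11:70156197-70170834, 10 exons) had means of 3.15 and 3.86 log2 CPM, or 8.85 and 14.5 CPM. Per length the pair lay closer, at 2.44 and 2.64 log2 CPM per kb. GENCODE M21 lists 7 coding transcripts of Clec10a, from which the longest, of 2332 nt, was used. With the median length of its coding transcripts, 789 nt, Clec10a stood at 4.20 log2 CPM per kb, so that its place depends on which transcript is made in muscle, which these data do not show. For Mgl2, with a median of 1586 nt against a longest transcript of 1635 nt, the value was 2.48.
Timd4, which encodes the phosphatidylserine receptor TIM-4 that binds dying cells (chr11:46810800-46844332, plus strand, 9 exons), was the lowest member, at -0.42 log2 CPM or 0.749 CPM. Only 5.82% of genes were at or below it, and 8.55% of all genes had a mean below 0. Genes were kept by the authors if they exceeded 1 CPM in at least 3 samples. Whether that filter and the mean are on the same scale was not tested. If they are, the samples that did not exceed 1 CPM must average below -0.83 log2 CPM, or 0.561 CPM. The lowest mean of any gene was -4.08 log2 CPM, and the spread of the mice is not known. Lyve1 was 11.3 times as high as Timd4 per length.

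F13a1, the A subunit of coagulation factor XIII, which cross-links fibrin (chr13:36867178-37050244, minus strand, 15 exons), had a mean of 5.39 log2 CPM, or 42.0 CPM, with 75.6% of genes at or below it. A pair of antisense genes, Gm49144 and Gm30489, overlap it. Cbr2 (chr11:120729489-120732114, minus strand, 8 exons) was at 4.13 log2 CPM, or 17.5 CPM. Per length the order turned, with Cbr2, whose transcript has 1110 nt, at 3.98 and F13a1, with 3952 nt, at 3.41 log2 CPM per kb. F13a1 and Mrc1 were near each other on both scales, 0.33 apart in log2 CPM with Mrc1 higher and 0.11 apart per kb with F13a1 higher. Cbr2 and Folr2 were also near each other, 0.09 apart in log2 CPM and 0.03 apart per kb.
Maf, a transcription factor of the bZIP family (chr8:115682942-115707794, minus strand, 1 exon in its longest coding transcript of 6360 nt), had the highest level of the 10. Its mean was 8.03 log2 CPM, or 261 CPM, which is place 382 from the top of all genes. Per length it was also the highest member, at 5.36 log2 CPM per kb, 4.17 times Mrc1. T cells and non-immune cells also use Maf, and the part of its level that comes from macrophages was not tested.

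**Figure D2:**
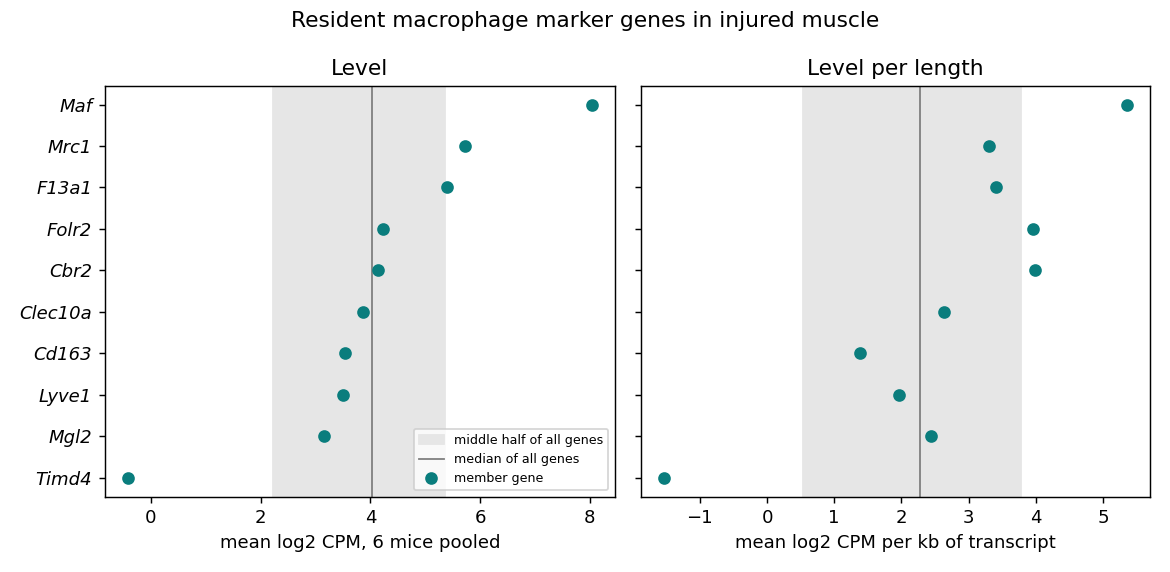
Authors' mean level of each of the 10 members (dots) over all 6 mice, in log2 CPM (left) and in log2 CPM per kb of the longest coding transcript (right), with the range between the quartiles of all genes in grey and their median as a line. On both scales Maf is the highest, at 8.03 and 5.36, and Timd4 the lowest, at -0.42 and -1.54, and no error can be drawn because each value is 1 pooled mean.

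As a group the 10 members lay close to the middle of the genes listed. Their median was 3.99 log2 CPM against 4.03 for all genes, with 5 members above that value and 5 below. Among genes of at least 1 log2 CPM, 3 of the 9 members that remain were above the median. Leaving aside Maf and Timd4, the remaining 8 lay between 3.15 and 5.73 log2 CPM. Per length the median of the members was 2.97 log2 CPM per kb against 2.28 for the 13941 genes with a known length, and 7 of the 10 were above it. From Timd4 to Maf the members covered 6.90 on the log2 scale per length, a ratio of 119.

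Genes of related roles were listed at the following levels, all in log2 CPM per kb. Of 15 genes found in macrophages in general, all 15 are listed, with a median of 3.21 and a range from 1.49 to 8.72. Csf1r, the growth factor receptor of macrophages, was at 3.92, and Adgre1, which encodes F4/80 and is listed under its older symbol Emr1, was at 3.01. Mrc1, at 3.30, lay between these, while Cd163 and Lyve1 lay under both. The complement genes C1qa, C1qb and C1qc, at 6.80, 6.42 and 6.22, were each above every one of the 10 members.
Among 20 further genes linked to resident macrophages, 18 are listed, with a median of 3.55, and Vsig4 and Marco are not. The scavenger receptor gene Stab1 was at 3.23, close to Mrc1, and Selenop, listed under its older symbol Sepp1, was at 7.72. Selenop and the next highest of this list, Ctsb, Gas6 and Cd36 at 7.56, 6.10 and 5.83, are also used by other cells of muscle. The part of their levels that comes from macrophages was not tested, so the median of this list is not a level of macrophages alone. The C-type lectin genes Cd209f, Cd209g and Cd209d were low, at 1.44, 0.10 and -0.32, yet above Timd4 at -1.54.
Of 12 genes of monocytes and inflammatory macrophages 11 are listed, and their median was 1.16, below that of the members. Ccr2, the chemokine receptor of entering monocytes, was at 1.82, above Cd163 at 1.38. Nos2, a gene of inflammatory macrophages, was at -1.29. Arg1 and Chil3, at -1.09 and -1.52, are also used as markers of type 2 activation, so this list is not purely inflammatory. Il1b, Cd86 and Ly6c2 were at -0.62, 0.75 and 1.16. Ly6c1, Plac8 and Vcan were higher, at 5.86, 2.61 and 2.00, each above both Cd163 and Lyve1. Endothelium also uses Ly6c1 and fibroblasts also use Vcan, so these 2 values are not levels of monocytes alone. The range of this list reached 6.67 with Fn1 (fibronectin), which fibroblasts make too. Of 13 genes for IL-4, IL-10 and growth factor signals to macrophages 11 are listed, with a median of 2.38. The receptor chain Il4ra was at 0.74 and the transcription factor Stat6, which it activates, at 3.54. Il4 itself is listed, at 0.46, with a low mean of -0.27 log2 CPM, while Il13 and Il10 are not among the genes listed.

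**Figure D3:**
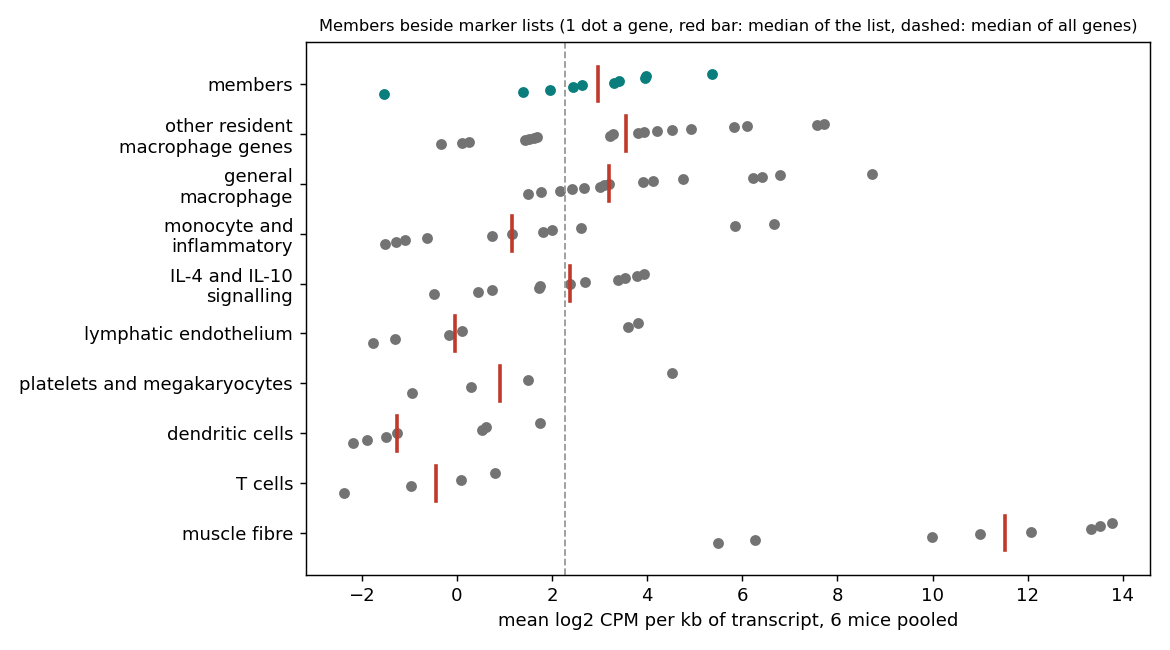
Authors' mean log2 CPM per kb of transcript over all 6 mice for the members (top row) and for 9 lists of genes (rows), 1 dot a gene with height inside a row used only to keep dots apart, and with the median of each list as a red bar and that of all genes as a dashed line. The members' median of 2.97 lies below those of the general and other resident macrophage lists, at 3.21 and 3.55, and above that of the monocyte and inflammatory list, at 1.16, and those of lymphatic endothelium, platelets, dendritic cells and T cells, which run from -1.25 to 0.90.

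Markers of other cells that use some of the same genes were present in the muscle. All 6 genes of lymphatic endothelium are listed, from -1.75 to 3.80 log2 CPM per kb, Lyve1 standing at 1.96 and Mrc1 at 3.30 on that scale. Pdpn, which fibroblasts can make too, and Ccl21a were above both members, at 3.80 and 3.60. Flt4, Prox1, Mmrn1 and Reln, from -1.75 to 0.11, were below both. Of 7 platelet and megakaryocyte genes 4 are listed, from -0.94 to 4.53, of which the highest was Pf4, a gene that resident macrophages also use, and Gp9, Gp1bb and Gp6 are not. All 7 dendritic cell genes are listed, from -2.18 to 1.76, each below Mgl2 and Clec10a, and of 7 T cell genes 4 are listed, from -2.36 to 0.80, each below Maf. The part of each member's level that comes from these cells was not tested.
All 8 muscle fibre genes are listed, as the tissue label calls for, with a median of 11.53 log2 CPM per kb. Gata1, the mutated gene, is not among the genes listed, and of 10 eosinophil genes only Ear2 is, at 0.61. The genotype labels were not checked here, because each value is 1 mean over both genotypes.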

How the data were processed

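RNA of injured quadriceps from 3 WT and 3 GATA-1 mutant mice was sequenced. Paired-end reads were pseudoaligned by the authors with kallisto and summed to genes, CPM values were made with edgeR, genes above 1 CPM in at least 3 samples were kept, and values were log transformed and TMM-normalized. The submitters' processing notes name the builds GRCm39 and mm39. The transcript index and strand setting are not given in the sources used here. The log2 values used are the authors' deposited mean log2 CPM of each gene over the samples. The other 5 columns hold the authors' own comparison of the genotypes (log2 fold change, moderated t, p-value before and after adjustment, log odds) and were not used. Values per mouse were not analysed here, so the planned limma fit was not run, the depth is unknown, and no error can be given.

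Of 14016 rows 1 has no symbol and was left out. GENCODE M21 (GRCm38) gave a length for 13458 symbols as listed and for a further 483 through synonyms from RefSeq, so that 99.5% of genes had a length. Coordinates and exons are those of GENCODE M21, a different build from the one in the submitters' notes. Level per length is the mean log2 CPM minus log2 of the longest coding transcript in kb. Shared sequence is the percent of 31-base words that other genes hold too, on one or the other strand. The ranking of a value was tested on shuffled levels of the genes. A separate version of the shared-word count was tested on random sequences with a copied stretch. Level per length was not tested. Python 3.11.15, pandas 2.3.3 and numpy 2.4.6 were used. The members and the lists were chosen with earlier results of these data known. The genes named are the members, selected genes of these lists, Gata1, and genes that share or overlap the sequence of a member.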

Additional observations from a re-analysis of the deposited data

How the results depend on the processing

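No paired analysis was possible because the values used here are 1 mean for each gene over all 6 mice. For the same reason the planned limma fit, its filter on low values and the fits leaving out each mouse were not run. Among protein-coding genes, 5 members were again above the median gene. With genes of at least 1 log2 CPM only, 9 members were ranked and 3 of them were above the median, since that minimum removes low genes and raises the median. With the longest transcript of any kind none of the 10 levels per length moved in the second decimal. With the median length of coding transcripts 7 of the 10 moved, all upwards, the median of the members became 3.36 against 2.97 log2 CPM per kb, 6 members against 7 were above the median gene, and Clec10a went from place 6 to place 4. With words of 25 bases, and with all transcripts of a member, 4 members shared over 10% of their words, as with 31-base words in the longest coding transcript. The pooled means carry no error, so small differences in level between members cannot be judged.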
